A study of Mus musculus with 2 samples.

Results

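The genes described here are 8 mouse receptors for haematopoietic growth factors, namely Flt3, Kit, Csf1r, Csf3r, Csf2ra, Csf2rb, Epor and Tek. They are a list of receptor genes by name, drawn up with earlier results of these peaks known, and they are 8 of the 21523 protein-coding genes placed on the peak map. The series consists of 2 ChIP-seq libraries (chromatin immunoprecipitation with sequencing) made with an anti-FLAG antibody from Lin-Sca-1+c-Kit+ cells, a population enriched for blood stem and progenitor cells, from C57BL/6 mice aged 8 to 10 weeks. One library came from cells infected with a MigR1 retrovirus encoding 3xFLAG-tagged HLF (labelled 3xFLAG-HLF/HLF), while the control cells received MigR1 empty vector. Culture lasted 5 days in both groups, in medium with Flt3L and IL-7, each at 10 ng/ml, IL-3 at 5 ng/ml and SCF at 50 ng/ml. Each group has 1 library, so no value below has a replicate error. The peaks are those of tagged HLF delivered by a virus, not of the endogenous protein, and the empty-vector library was not analysed here. A peak list cannot show whether the cells carried the markers they were sorted on, although the labels give their tissue as blood.

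HLF belongs to the PAR bZIP family of transcription factors, which bind palindromic sites as dimers, with half-sites close to those of the C/EBP factors. The receptors fall into families by structure. FLT3, KIT and the CSF-1 receptor are related receptor tyrosine kinases, which pair and phosphorylate each other when FLT3 ligand, stem cell factor (SCF) or CSF-1 binds. TEK (TIE2) is the tyrosine kinase receptor of the angiopoietins on endothelial and blood stem cells. The G-CSF receptor (Csf3r), the erythropoietin receptor (Epor) and the GM-CSF receptor chains (Csf2ra and Csf2rb) have no kinase of their own and signal through JAK kinases bound to their tails. The medium therefore contained the ligands of KIT and FLT3, and IL-3, whose receptor uses the chain encoded by Csf2rb. Transcripts were not measured, and a peak gives no information on whether a receptor gene was active.

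FLAG-HLF peaks lay inside 1 of the 8 receptor genes, Flt3, and 5.58 kb upstream of Csf3r. Epor, Csf2rb and Kit had their nearest peak between 20 and 100 kb away, and Csf2ra, Csf1r and Tek had none within 100 kb. In counts, 1 of 8 had a peak centre in the gene body (12.5%, exact Clopper-Pearson 95% interval 0.316 to 52.7%), where 6.94% of all protein-coding genes had one. In the body or within 20 kb of either end there were 2 of 8 (25%, 3.19 to 65.1%), against 15.3% of all protein-coding genes. Within 100 kb there were 5 of 8 (62.5%, 24.5 to 91.5%), against 36.9%. All 3 intervals include the share of all genes. The 8 genes were chosen with earlier results of these peaks known, so the intervals describe the counts and test no difference. The intervals cover the counting of genes alone, and the depth behind the peaks is unknown.

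**Figure D1:**
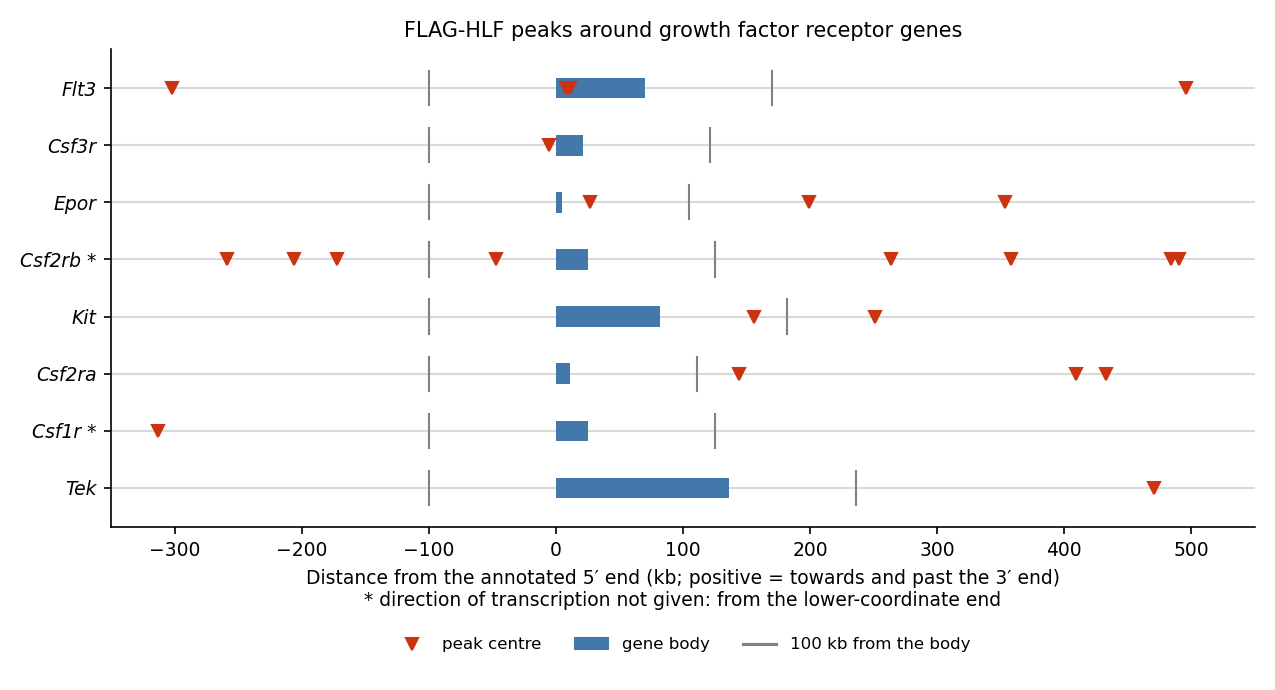
FLAG-HLF peak centres (triangles) around the 8 receptor genes, ordered by distance to the nearest peak. The horizontal axis is the distance in kb from the annotated 5′ end (Csf1r and Csf2rb, marked with asterisks: from the lower-coordinate end), bars are gene bodies and grey ticks stand 100 kb from the body. The 2 Flt3 triangles overlap at 7.64 and 11.4 kb inside the gene, and the rows of Csf2ra, Csf1r and Tek are empty between the ticks.

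Of the sequence at these loci, the promoters in a RefSeq table of the GRCm38.p6 assembly (250 bases before to 50 after a start site) could be set beside the peaks. That table has the same coordinates as the mm10 build of the peaks, and holds entries for 6 of the receptor genes (all but Csf1r and Csf2rb). None of these entries was touched by a peak. The single promoter that lay within a receptor gene's nearest peak was that of Plppr2, a neighbour of Epor, which encodes a phospholipid phosphatase-related membrane protein. It is shown because it is the only stretch of a receptor-associated peak whose letters the table holds. Plppr2 (gene ID 235044) is on the plus strand, and its promoter window, chr9:21936760-21937059, lies whole inside the 400 bp peak. Capitals mark matches to TTATGCAA, a site in which the half-site TTAT is joined to GCAA.

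Plppr2 promoter: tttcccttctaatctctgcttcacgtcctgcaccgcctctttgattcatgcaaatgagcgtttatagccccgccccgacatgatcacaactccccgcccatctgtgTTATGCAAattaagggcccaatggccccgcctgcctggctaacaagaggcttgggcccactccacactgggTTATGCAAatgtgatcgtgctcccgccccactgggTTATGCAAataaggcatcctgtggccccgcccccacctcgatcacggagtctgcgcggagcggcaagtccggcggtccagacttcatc

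The Plppr2 window holds TTATGCAA 3 times, starting 144, 73 and 38 bp before the annotated start site, all in the same orientation. The peak centre lay 61 bp before that start site, between the match at 73 bp and that at 38 bp. This was the single window of the table's 32851 with 3 copies of that site, a count made after the sequence had been seen. Each copy is followed by AT, and the stretch ATGCAAAT so formed also occurs farther upstream in the window, outside the full site. Which protein binds these letters was not tested. The promoters of Flt3 and Csf3r, the receptor genes with the closest peaks, are shown as the start sites from which distances are given below. Here the capital letter is the annotated first base. Flt3 lies on the minus strand (chr5:147400440-147400739) and Csf3r on the plus strand (chr4:126024409-126024708).

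Flt3 promoter: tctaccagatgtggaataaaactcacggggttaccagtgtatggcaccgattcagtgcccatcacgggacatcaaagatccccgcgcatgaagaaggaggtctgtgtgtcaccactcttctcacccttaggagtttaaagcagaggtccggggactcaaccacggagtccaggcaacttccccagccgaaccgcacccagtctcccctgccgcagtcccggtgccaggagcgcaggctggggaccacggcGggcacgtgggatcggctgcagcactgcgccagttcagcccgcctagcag
Csf3r promoter: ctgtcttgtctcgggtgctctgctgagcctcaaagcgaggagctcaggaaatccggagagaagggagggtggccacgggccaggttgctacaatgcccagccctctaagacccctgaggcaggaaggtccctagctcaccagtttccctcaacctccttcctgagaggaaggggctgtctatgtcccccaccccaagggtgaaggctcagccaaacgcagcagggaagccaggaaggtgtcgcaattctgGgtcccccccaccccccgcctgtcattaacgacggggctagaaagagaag

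For the scan of promoters, 7 sites of the PAR bZIP and C/EBP type were searched on both strands: TTACGTAA, TTATGTAA, TTGCGCAA, TTACGCAA, TTATGCAA, TTGTGCAA and TTGTGTAA. At least 1 occurred in 3.77% of all 32851 promoter windows (1239) and in 33.9% of the 227 windows that a peak touched (77). TTATGCAA alone was in 0.743% of all windows and in 6.61% of those touched by a peak. No match was found in the windows of Flt3, Kit, Csf3r, Csf2ra, Epor or Tek, which says only that these letters are absent there. The looser patterns TTACNNAA and TTGCNNAA, which together cover the 7 sites, were in 9.18% and 10.8% of all windows and were likewise absent from those 6 genes. Sequence under the other receptor-associated peaks was not used here.

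Among the tyrosine kinase receptor genes described here (Flt3, Kit, Csf1r and Tek), Flt3 stood nearest to HLF peaks. FLT3 marks multipotent and lymphoid-primed progenitors and supports the development of B cells and dendritic cells. The gene (gene ID 14255; mm10 chromosome 5, 147330741 to 147400489) is 69.7 kb long and contained 2 peaks. One spanned 147392648 to 147393047, with its centre 7.64 kb downstream of the start site, and the other spanned 147388922 to 147389321, centred 11.4 kb downstream. Both thus lay in the part of the gene next to its 5′ end, with 62.1 and 58.4 kb of the gene body beyond them. Exons and introns could not be assigned. The centres were 3.73 kb apart, and 182 of the 3153 peaks (5.77%) had another peak that close.

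No other protein-coding gene lay within 20 kb of either Flt3 peak. The nearest was Pan3, a subunit of a poly(A) nuclease, 33.4 kb from the closer one, and a long noncoding RNA gene, Gm26597, lay 6.71 kb from it. Flanking sequence to 100 kb on both sides of Flt3 held no further peak. The next peak was 302 kb upstream, inside Flt1, which encodes a VEGF receptor. A long gene offers more room for a peak: of the 2506 protein-coding genes of 50 to 100 kb, 12.8% had a peak in the body and 2.04% had at least 2. Over all protein-coding genes the latter share was 1.04%.

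Kit, the SCF receptor that defines the sorted population, had no peak in its body or near its start. The gene (gene ID 16590; chromosome 5, 75574987 to 75656722) is 81.7 kb long, in the same length class as Flt3. Its nearest peak (75730816 to 75731215) was centred 74.3 kb past the 3′ end, or 156 kb from the start site. Another peak lay 170 kb past the 3′ end, beyond the 100 kb limit. Both fell in the 276 kb between Kit and Kdr, which encodes another VEGF receptor and is the next coding gene. For the first peak Kit was the nearest coding gene, with Kdr 202 kb away, and for the second Kdr was nearer at 106 kb. Kit had no other protein-coding gene within 100 kb. Of all protein-coding genes, 30.8% had a peak as near as Kit did.

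Csf1r and Tek were the farthest of the 8 from any peak. Csf1r encodes the CSF-1 receptor of monocytes and macrophages (gene ID 12978; chromosome 18, 61105572 to 61131139). Its nearest peak was 313 kb away and lay 11.7 kb from Cd74, the invariant chain of MHC class II, and 13.6 kb from Rps14. There were 8 other coding genes within 100 kb of Csf1r and no peak among them. Tek (gene ID 21687; chromosome 4, 94739086 to 94874976) is the longest of the 8 at 136 kb. Of the 1435 protein-coding genes of 100 to 200 kb, 19.2% had a peak in the body, and Tek was among those that had none. Its nearest peak was 335 kb past its 3′ end, inside the noncoding gene Gm12708. A peak as near as that of Csf1r was found for 63.5% of protein-coding genes, and as near as that of Tek for 64.9%.

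Of the cytokine receptors, Csf3r alone had a peak within 20 kb. G-CSF acting on this receptor drives neutrophil production. The gene (gene ID 12986; chromosome 4, 126023441 to 126044975) is 21.5 kb long. Its peak (126017658 to 126018057) was centred 5.58 kb before the annotated 5′ end of the gene, and 6.8 kb before the start site of the promoter shown above, which lies inside the annotated gene. It fell within a long noncoding RNA gene, Gm32908. Csf3r was the nearest protein-coding gene, with Mrps15, a mitochondrial ribosomal protein gene, 29.1 kb away on the other side of Csf3r. No other peak lay within 100 kb. A peak as near as this was found for 9.82% of protein-coding genes.

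The Epor peak lay just beyond the 20 kb limit. Epor, required for red cell production, is the shortest of the 8 at 4.68 kb (gene ID 13857; chromosome 9, 21958897 to 21963576). The peak (21936750 to 21937149) was centred 21.9 kb past its 3′ end and 26.6 kb from its start site. This is the peak on the Plppr2 promoter. Ccdc159 lay 1.08 kb from it, and it was within 20 kb of 5 coding genes, none of them Epor. Epor stands in a gene-dense stretch with 10 other coding genes within 100 kb, so the peak cannot be given to it by position.

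The GM-CSF receptor chains had no peak within 20 kb. Csf2rb encodes the common beta chain through which GM-CSF, IL-3 and IL-5 signal (gene ID 12983; chromosome 15, 78325800 to 78351001). The peak nearest to it (78278349 to 78278748) was 47.3 kb away. Between the peak and Csf2rb stood Csf2rb2, the paralogue that encodes the IL-3-specific beta chain in the mouse. The peak lay 3.96 kb past the 3′ end of Csf2rb2 and 27.2 kb from its start site. On its other side, Ncf4, a subunit of the phagocyte NADPH oxidase, was 16.0 kb away. Csf2ra encodes the GM-CSF-specific alpha chain (gene ID 12982; chromosome 19, 61217191 to 61228461). Its nearest peak was 133 kb past its 3′ end, where the bodies of Grk5 and Zfp950 overlap. Csf2ra is the last protein-coding gene of chromosome 19 in the table, and no peak of that chromosome lay beyond it.

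**Figure D2:**
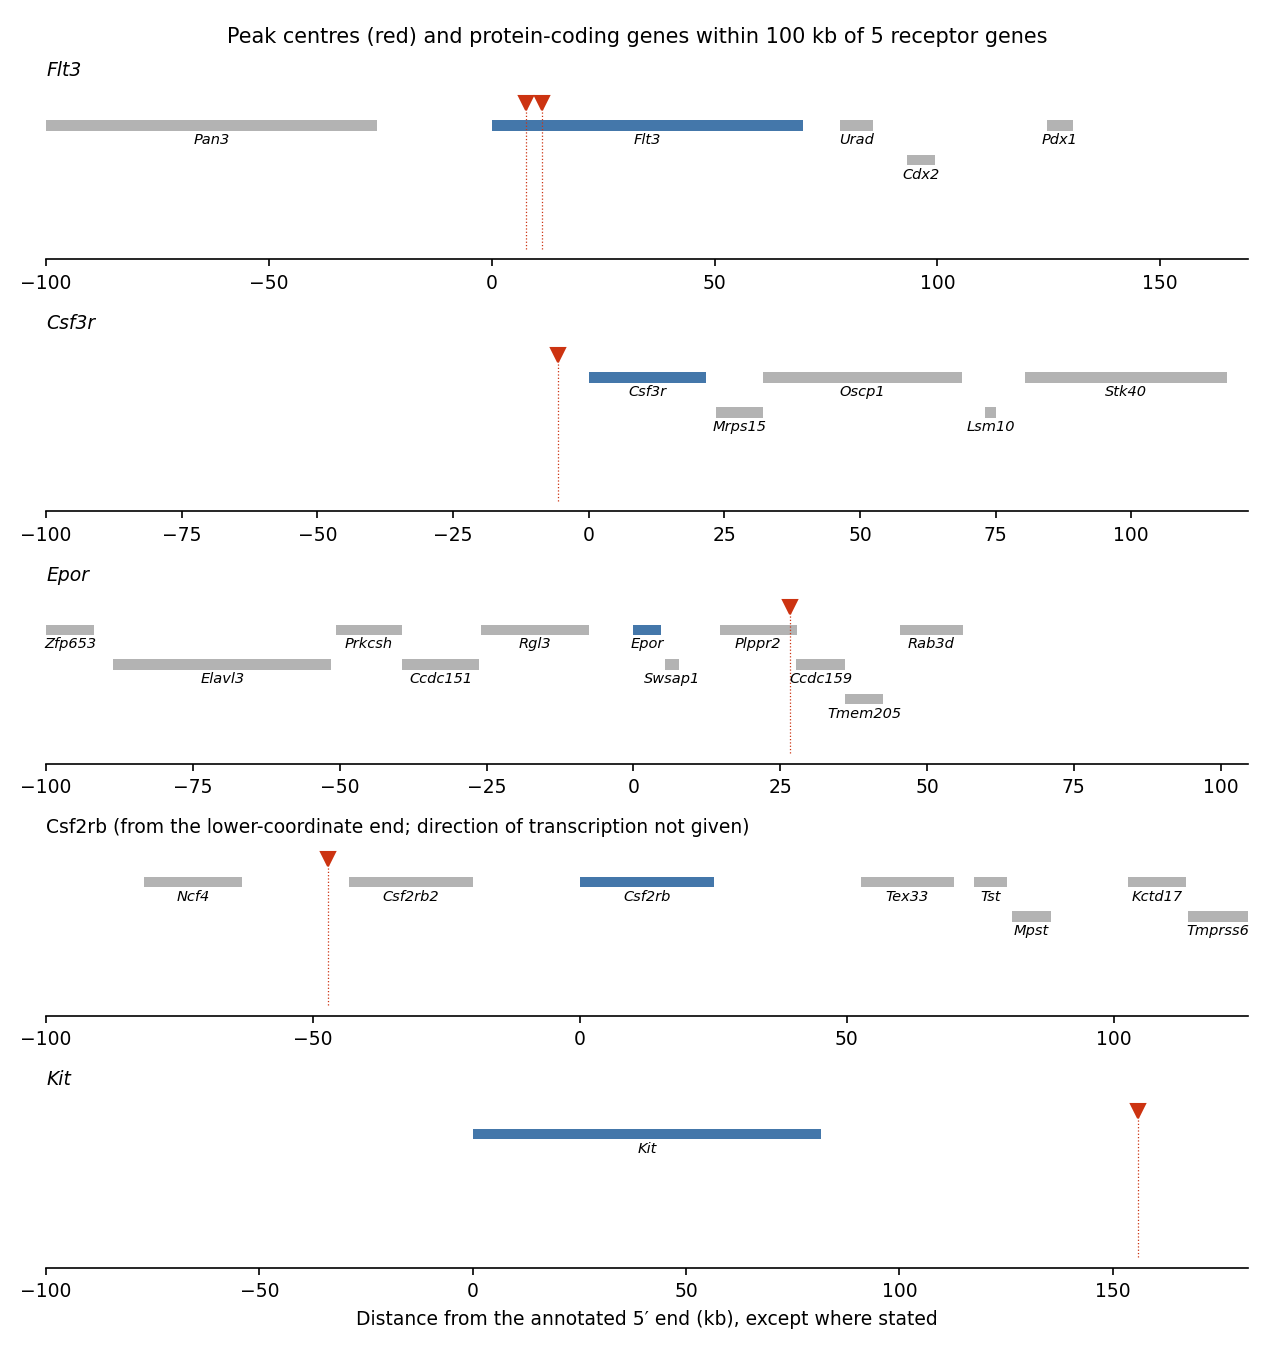
Protein-coding genes (grey; the receptor gene in blue) and FLAG-HLF peak centres (red) within 100 kb of the 5 receptor genes that had a peak there, with distance in kb from the 5′ end (Csf2rb: from the lower-coordinate end). The Flt3 peaks lie inside the gene, the Csf3r peak lies 5.58 kb before it, the Epor peak falls on Plppr2, that of Csf2rb beside Csf2rb2, and the Kit peak in a stretch without coding genes.

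Across the 8 genes, the nearest peak was a median of 60.8 kb from the gene body, and across all protein-coding genes 179 kb. This difference was not tested. The 8 genes were also longer, with a median body of 25.4 kb against 17.4 kb, and the Epor and Csf2rb peaks lay nearer to other coding genes. The order from near to far was Flt3 (inside), Csf3r, Epor, Csf2rb, Kit, Csf2ra, Csf1r and Tek. With 1 library, neighbours in this order could not be compared against a spread. The order did not follow receptor family, since the tyrosine kinase genes included the nearest (Flt3) and the farthest (Csf1r and Tek). Together the regions within 100 kb of the 8 genes span 1.98 Mb and held 6 distinct peaks, or 3.04 per Mb (exact Poisson 95% interval 1.11 to 6.61). The same regions of all protein-coding genes, joined where they overlap, held 1.61 peaks per Mb (1.55 to 1.67). This value lies inside the interval of the receptor genes. That interval treats each peak as separate, although 2 of the 6 lie 3.73 kb apart in Flt3. It describes the count and tests no difference, since the genes were chosen with earlier results of these peaks known.

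**Figure D3:**
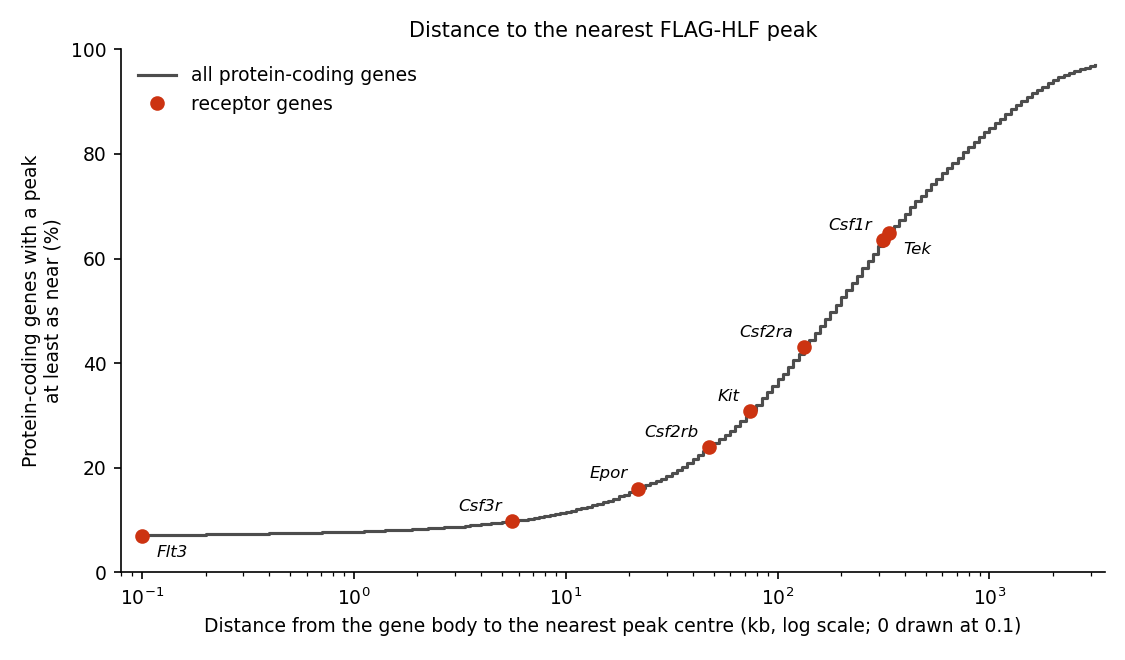
Share of all protein-coding genes (vertical axis, %) with a peak at least as near as the distance on the horizontal axis (kb, log scale, with 0 drawn at 0.1), with the 8 receptor genes placed on the curve. The receptor genes run from 6.94% for Flt3, inside which peaks lie, to 64.9% for Tek.

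Among the genes of the receptors' ligands and of related cytokines, only the angiopoietins lay within 20 kb of a peak. Of 13 ligand genes, 2 had a peak inside or up to 20 kb away (15.4%, against 15.3% of all protein-coding genes), namely Angpt1 and Angpt2, which encode ligands of TEK. Angpt1 (chromosome 15) held 1 peak, 96.2 kb from its nearer end. Angpt2 (chromosome 8) held 2 peaks, 18.4 and 20.5 kb from its nearer end, and 1 more lay 2.44 kb outside. All 3 Angpt2 peaks also lay in the body of Mcph1, a gene that contains Angpt2. Within 100 kb there were 7 of the 13 ligand genes (53.8%, 25.1 to 80.8%), against 36.9% of all protein-coding genes. The latter share lies inside the interval, which describes the count and tests no difference. Thpo, the thrombopoietin gene, had a peak 22.8 kb away, Csf1 46.7 kb, Flt3l 48.5 kb, Csf3 51.5 kb and Csf2 97.3 kb. These peaks of Thpo, Flt3l, Csf3 and Csf2 each lay within 20 kb of at least 1 other coding gene, so nearer to it. That of Csf1 did not. The nearest peak to Kitl, the SCF gene, was 556 kb away, and to Il7 1150 kb.

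Among 11 related receptors, 2 had a peak within 20 kb (18.2%, against 15.3% of all protein-coding genes). These were Csf2rb2, through the peak described above, and Flt1, with 1 peak in its body 23.7 kb from the 5′ end. The other 9 had none within 100 kb, so the share at that distance was also 18.2% (2.28 to 51.8%), against 36.9% of all protein-coding genes. Il3ra, which encodes the alpha chain of the IL-3 receptor, was 258 kb from its nearest peak, Il7r 879 kb and Il5ra 1500 kb. Tie1, the close relative of Tek, was 463 kb away. The median over the 11 was 258 kb, compared with 60.8 kb for the 8 receptor genes, and this difference was not tested.

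Signalling genes downstream of the receptors held peaks at Gab2, Jak2, Stat3, Lyn, Cbl, Cblb and Inpp5d. Of 21 signalling genes, 7 had a peak in the body (33.3%, 14.6 to 57.0%, against 6.94% of all protein-coding genes), and 9 had one inside or up to 20 kb away (42.9%, 21.8 to 66.0%, against 15.3%). Within 100 kb there were 16 (76.2%, 52.8 to 91.8%, against 36.9%). Neighbouring genes of the list can share a peak, as Stat3 and Stat5a did, and the intervals treat each gene as separate. The list was drawn up with earlier results of these peaks known, so its counts are a description and were not tested against other genes. The signalling genes were also longer, with a median body of 60.9 kb against 17.4 kb for all protein-coding genes and 25.4 kb for the 8 receptor genes. The part of length in the counts was not tested. The largest number among them was at Gab2, an adaptor that binds the SHP-2 phosphatase, with 4 peaks in its body of 227 kb and 1 a further 6.51 kb outside. Across all lengths, 6 protein-coding genes had 4 or more peaks in the body. Of the 990 protein-coding genes of 200 kb or longer, 27.3% had a peak in the body and 7.37% had at least 2.

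Kinases and transcription factors of the pathway were among these 9. Jak2, the kinase used by EPOR and the GM-CSF receptor, had 1 peak 19.5 kb downstream of its 5′ end. Stat3, a factor activated by the G-CSF receptor, had 1 peak 1.22 kb downstream of its 5′ end and 1 at 12.4 kb upstream. The upstream peak lay nearer to another coding gene, Cavin1, at 4.71 kb. The Stat3 peak inside the gene was also the nearest to Stat5a, at 53.2 kb. Stat5b was 21.7 kb from a peak that had 3 other coding genes within 20 kb. Lyn, a SRC-family kinase, had 1 peak in the body, 3.82 kb from its nearer end, and 1 at 12.7 kb outside. The nearest peak to Jak1 was 310 kb away.

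Genes of enzymes and inhibitors that limit receptor signalling made up most of the rest. Inpp5d, encoding the SHIP1 phosphatase, had 1 peak 4.64 kb downstream of its 5′ end. Cbl and Cblb, encoding ubiquitin ligases that remove active receptors, each had 1 in the body, 42.9 and 50.8 kb downstream of the 5′ end. Socs3, whose product inhibits the G-CSF receptor, had a peak 19.5 kb past its 3′ end. Ptpn11, encoding the SHP-2 phosphatase, which in contrast promotes signalling, had 1 at 7.0 kb past its 3′ end. Among the other genes of the list, Cish lay 32.5 kb from a peak, Pik3cd 46.2 kb, Ptpn6 51.2 kb, Sos1 80.5 kb and Socs2 81.6 kb. Each of these peaks lay within 20 kb of at least 1 other coding gene, so nearer to it than to the listed gene. Sh2b3, Socs1, Grb2 and Shc1 had no peak within 100 kb.

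**Figure D4:**
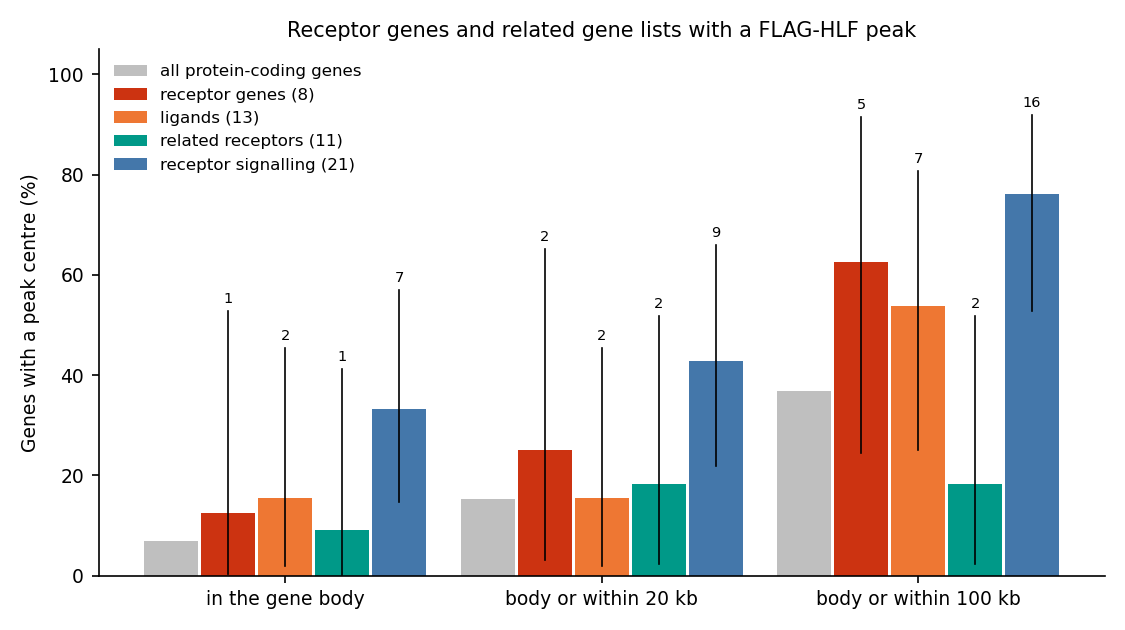
Share of genes (%) with a FLAG-HLF peak centre in the body, within 20 kb and within 100 kb, for all 21523 protein-coding genes (grey) and for the receptor genes, their ligands, related receptors and signalling genes. Lines are exact 95% binomial intervals over genes and the digits over the lines are gene counts, from 1 of 8 receptor genes in the body to 16 of 21 signalling genes within 100 kb.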

How the data were processed

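Per the file itself, the deposited list for the FLAG-HLF library gives chromosome, start and end of 3153 peaks, each 400 bp wide. The authors deposited no score with it, so depth, peak height and a stricter threshold could not be used. Bowtie2 2.0.6, MACS2 2.0.10 and mm10 are named in the submitters' processing notes. How peaks were thresholded, set to one width and compared with the control is not given in the sources used here. A peak's position was its start + 200 bp. Gene positions came from a RefSeq table (GRCm38.p6): of 49997 rows, 49214 on the 19 autosomes and X that start above 3 Mb were used. All 8 receptor genes and 45 further list genes matched by symbol, and 1 other gene of the lists is not reported here. Strand came from the RefSeq promoter table. A gene within a window is one with a peak centre in its body or up to that distance from either end. The text names all 8 receptor genes and the list genes within 20 kb of a peak, with others of the lists for their distance; Plppr2 was named after its sequence was seen. Members and lists were chosen with earlier results of these data known. No test was run, since there is 1 library. Code was tested on planted peaks (Python 3.11.15, pandas 2.3.3, scipy 1.17.1).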

Additional observations from a re-analysis of the deposited data

How the results depend on the processing

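The counts of receptor genes with a peak kept their values when any overlap of the 400 bp interval was counted, and when peaks within 1 kb were merged. A window of 10 kb gave the same 2 genes as 20 kb. A window of 50 kb gave 4, adding Epor and Csf2rb, whose peaks lie at 21.9 and 47.3 kb. When each peak was given only to the nearest coding gene, the count within 100 kb went from 5 to 3 (Flt3, Csf3r and Kit), because the Epor and Csf2rb peaks lie nearer to other genes. A window of 200 kb gave 6, adding Csf2ra. Over all annotated genes in place of protein-coding ones, the background share was 3.78% for the body, 10.8% within 20 kb and 29.4% within 100 kb. Measured from start sites, which was tried only after seeing the data, the median distance of the 6 genes with one went from 48.1 to 85.3 kb. The comparison by gene length class was likewise chosen after seeing the data. No paired analysis was possible because there is 1 library with peaks, and no replicate could be left out.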
